A study of Mus musculus with 22 samples.

Results

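The proteasome genes described here are the subunits and activators of the proteasome whose symbols begin with Psma, Psmb, Psmc, Psmd or Psme followed by a number, and which had a value above 0 in at least 3 of 22 mouse liver libraries. They numbered 43 of the 16469 genes in the deposited table, chosen by name and without regard to how they moved. Of these, 5 encode interferon-inducible parts (Psmb8, Psmb9, Psmb10, Psme1 and Psme2, the immunoproteasome genes below) and 38 encode the remaining subunits. A filter of at least 1 CPM (read per 1000000 TMM-scaled reads) in at least 3 libraries passed 42 of the 43, the exception being Psma8, an alpha subunit known from testis, which had 0 to 0.617 CPM. Psmb11, the thymus subunit, was absent from the deposited table and so was not analysed here.

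The proteasome is the protease that breaks down ubiquitin-tagged proteins in the cytosol and nucleus. Its 20S core is a barrel with outer rings of alpha subunits (Psma genes) and inner rings of beta subunits (Psmb genes), and the beta subunits Psmb5, Psmb6 and Psmb7 carry the proteolytic sites. The 19S cap that recognises and unfolds substrates is built from ATPases (Psmc genes) and non-ATPase subunits (Psmd genes). Interferon brings in Psmb8, Psmb9 and Psmb10, which take the places of Psmb5, Psmb6 and Psmb7 in newly made cores, and Psme1 and Psme2, which form the PA28 activator ring. Immunoproteasomes favour peptides that fit MHC class I, and hepatocytes hold few of them at rest.

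The study asked what lipid nanoparticles loaded with a Dicer-substrate RNA, a short duplex that Dicer processes into a silencing RNA, do to the whole liver transcriptome. There were 3 livers from mice given particles intravenously at 2 mg/kg, 4 livers from mice pretreated with BLT-1 (1 mg/kg, 24 h earlier) and then given 0.2 mg/kg, 8 livers from mice given 0.2 mg/kg alone, and 7 controls, for which the labels name no treatment. All mice were C57BL6J, livers were perfused with PBS and taken 24 h after the particles, and no group had BLT-1 alone, a compound known to block lipid transport by the scavenger receptor SR-BI. Column names of the deposited table give Hprt as the target of the RNA, and the labels number the livers but do not say how many mice were used, so p-values measure the spread between these samples, which may be technical. Ages and sexes of the mice are not given in the sources used here.

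Libraries were made from the 3′ ends of polyadenylated RNA and held 7152596 to 15101565 reads, spike-ins included. Hprt averaged 15.3 ± 2.32 CPM at 2 mg/kg and 30.1 ± 4.87 CPM in controls (SD, n = 3 and 7; log2 fold change -0.95, SE 0.11, adjusted p = 1.36e-05 by limma), and was not called at 0.2 mg/kg with or without BLT-1. The livers at 2 mg/kg stood apart in sex-linked genes, with Xist at 3.99 ± 1.06 CPM against 0.160 ± 0.0953 CPM in controls, and the Y-linked Ddx3y at 7.55 ± 1.24 CPM against 17.1 ± 0.939 CPM, so a sex-linked difference and the dose cannot be told apart in any comparison with 2 mg/kg. Hepatocyte markers (7 of 8 in the table) defined the tissue, summing to 17254 to 21312 CPM at 2 mg/kg, 20188 to 21762 CPM with BLT-1, 20489 to 22842 CPM at 0.2 mg/kg and 22987 to 27059 CPM in controls. These are whole livers, in which fewer cells of a type and less RNA per cell cannot be told apart. Controls 28 and 29 stood apart from the other controls in an earlier analysis of these data, and counts that change without them are given where that happens.

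The sequence just before the start of transcription is shown for a constitutive gene and for the inducible gene that replaces it in the core, together with a further inducible gene, because the groups of genes they belong to moved differently. The windows are the 250 bases before the annotated start, taken from RefSeq on GRCm38.p6, and 36 of the 43 genes matched an entry. Capitals mark a match, on either strand, to the gamma-activated sequence TTCNNNGAA, known from interferon gamma target genes, in Psmb8 (chr17:34197945-34198194, plus strand), and to the antioxidant response core TGACNNNGC, known from NRF1 and NRF2 targets, in Psmb5 (chr14:54617996-54618245, minus strand). The Psmb9 window (chr17:34187331-34187580, minus strand) held neither pattern.
Psmb8: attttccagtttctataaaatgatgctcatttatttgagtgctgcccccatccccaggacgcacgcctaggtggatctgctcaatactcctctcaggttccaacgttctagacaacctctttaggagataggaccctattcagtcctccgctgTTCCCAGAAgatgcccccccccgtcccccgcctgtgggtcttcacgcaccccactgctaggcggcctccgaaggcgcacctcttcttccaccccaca
Psmb9: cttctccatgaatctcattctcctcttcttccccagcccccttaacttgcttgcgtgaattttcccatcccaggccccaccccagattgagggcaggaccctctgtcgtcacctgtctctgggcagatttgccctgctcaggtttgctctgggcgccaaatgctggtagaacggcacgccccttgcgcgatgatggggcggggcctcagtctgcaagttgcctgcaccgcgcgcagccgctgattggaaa
Psmb5: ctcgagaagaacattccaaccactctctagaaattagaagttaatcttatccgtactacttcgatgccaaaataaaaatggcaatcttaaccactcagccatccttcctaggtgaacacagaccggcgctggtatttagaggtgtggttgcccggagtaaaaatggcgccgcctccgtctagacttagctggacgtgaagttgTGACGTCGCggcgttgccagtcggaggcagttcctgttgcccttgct
Both strands of each window were searched, and the patterns did not overlap each other in the windows shown. TTCNNNGAA was found in 7.02% of all 32851 promoter windows of this length and, among the 36 matched proteasome genes, in Psmb8 alone, so in no other immunoproteasome gene. The interferon response core (GAAA, any 2 bases, GAAA) was found in 2.98% of windows and in Psmb3, Psmd4 and Psmd9, but in no immunoproteasome gene. TGACNNNGC was found in 10.2% of windows and in Psmb5, Psmb6, Psmc6, Psmd9 and Psmd12. Any part of these patterns in the changes described below was not tested. The windows of Psmb9 and Tap1, a peptide transporter gene, shared 225 bases on opposite strands, so these genes start back to back.

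All 5 immunoproteasome genes rose at 0.2 mg/kg against controls, by 1.54-fold to 2.93-fold, and in each of them the lowest of the 8 treated livers lay above the highest of the 7 controls. The median log2 fold change was 1.22 over the 5 genes, 0.15 over the 37 other subunit genes tested and 0.0023 over all 10763 genes tested. In this comparison 3.39% of all genes tested were called higher and 2.37% lower (limma on log2(CPM + 0.5) with TMM scaling, Benjamini-Hochberg adjusted p of 0.05 or less), and 1.56% had every treated liver above every control. On the deposited spike-in scale, where 0.223% of genes were called higher, the calls were Psmb8 and Psmb9 (adjusted p = 0.00474 and 0.0258 by limma).

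Psmb8 (LMP7, the inducible counterpart of Psmb5) showed the steepest change. Its level was 35.2 (lowest), 38.2 (median) and 48.8 (highest) CPM at 0.2 mg/kg, against 9.11 (lowest), 14.2 (median) and 16.8 (highest) CPM in controls (log2 fold change 1.55, SE 0.11, adjusted p = 3.89e-08 by limma). At 2 mg/kg the 3 livers held 31.02, 29.8 and 41.6 CPM, and with BLT-1 before 0.2 mg/kg the 4 livers held 31.5, 34.7, 42.1 and 33.03 CPM. Every treated liver of the 3 groups was thus above the highest control, and the 3 treated groups overlapped each other.

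Psmb9 (LMP2, the counterpart of Psmb6) had 38.7 (lowest), 44.7 (median) and 75.2 (highest) CPM at 0.2 mg/kg, against 13.99 (lowest), 16.8 (median) and 21.9 (highest) CPM in controls (log2 fold change 1.48, SE 0.13, adjusted p = 3.12e-07 by limma). The highest value came from liver 5 and the next, 63.2 CPM, from liver 30, while the other 6 livers at this dose lay between 38.7 and 47.1 CPM. The livers at 2 mg/kg held 30.4, 25.4 and 28.8 CPM, and those with BLT-1 26.2, 30.7, 37.5 and 29.2 CPM. These 7 livers sat between the controls and the group at 0.2 mg/kg without overlap on either side. Exons of Psmb9 and Tap1 overlap by 212 bases on opposite strands, and use of strand in counting is not given in the sources used here, so reads of the pair cannot be told apart there. The pair starts back to back whereas the libraries are from 3′ ends, and how many reads fell in the overlap was not counted. The limit on strand applies also to Psmb8 with Gm20496 (498 bases), Psmb7 with Nek6 (405), Psmd13 with Sirt3 (342), Psmc3 with Slc39a13 (215) and Psma4 with AY074887 (114). Psmd9 shares 1849 bases with a noncoding gene on the opposite strand. Psmd1 shares 301 bases with a gene on the same strand, which use of strand could not resolve. These are not all the overlaps in the annotation.

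Psmb10 (MECL-1, the counterpart of Psmb7) had 151 (lowest), 172 (median) and 201 (highest) CPM at 0.2 mg/kg, against 62.01 (lowest), 67.6 (median) and 91.2 (highest) CPM in controls (log2 fold change 1.22, SE 0.09, adjusted p = 3.90e-08 by limma). It stood at 120.5, 104 and 121 CPM at 2 mg/kg and at 112, 112, 155 and 121 CPM with BLT-1. The livers at 2 mg/kg again lay between controls and 0.2 mg/kg without overlap, whereas the BLT-1 liver with the highest value, liver 19, lay within the range at 0.2 mg/kg.

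**Figure D1:**
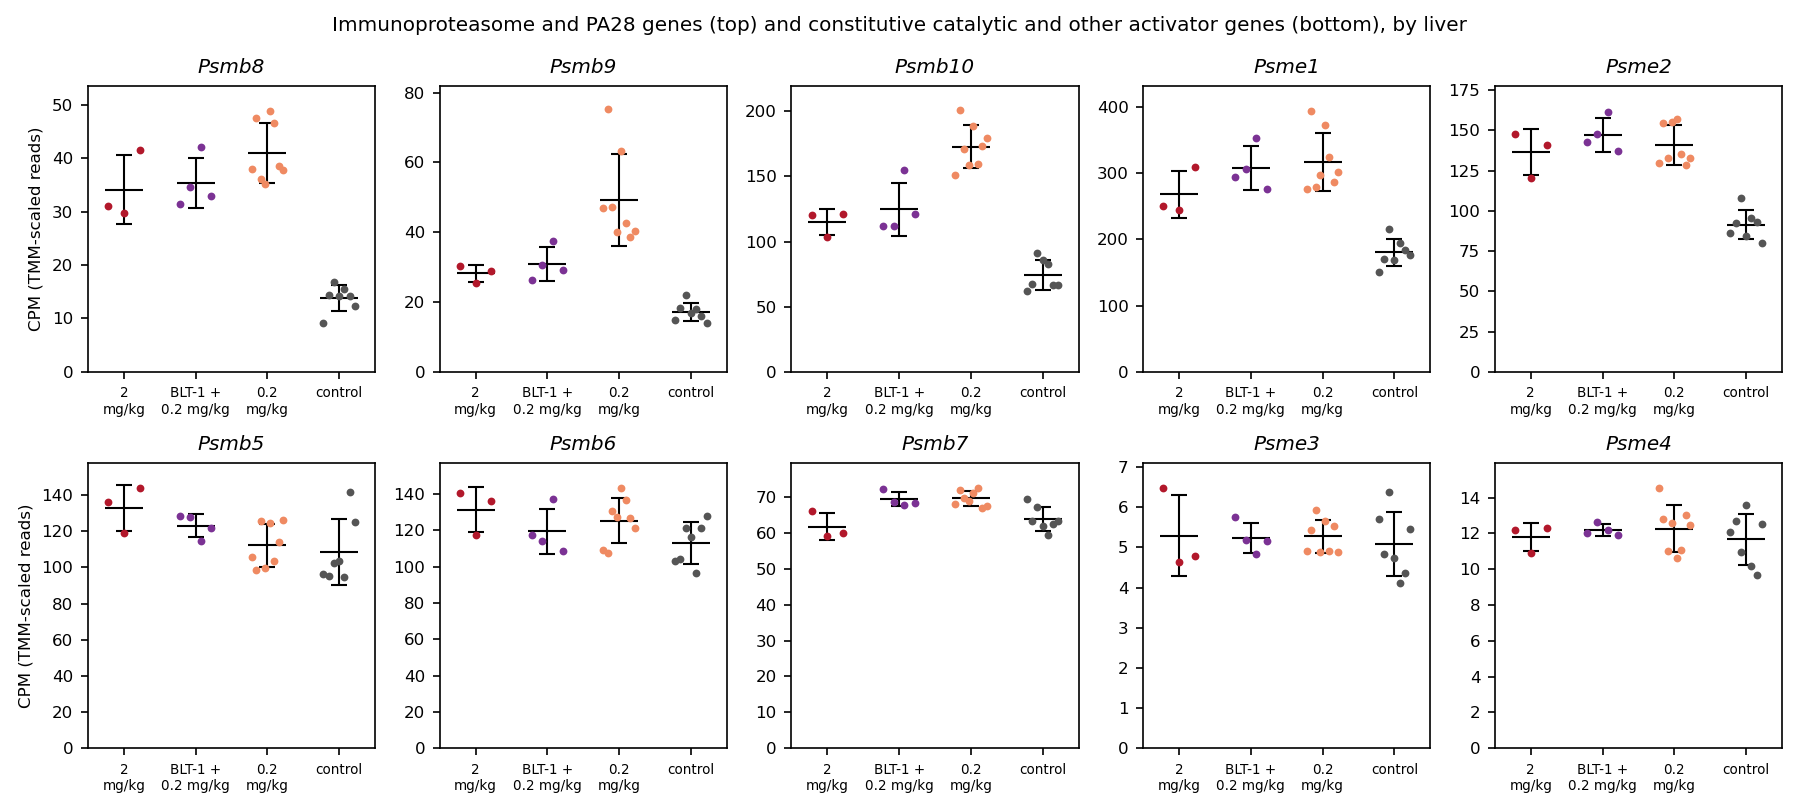
Levels of 10 proteasome genes in each liver as CPM of TMM-scaled reads (vertical axes from 0), by group; points are livers, and bars show the mean and SD (n = 3, 4, 8 and 7 for 2 mg/kg, BLT-1 plus 0.2 mg/kg, 0.2 mg/kg and control). In the upper panels every treated liver lies above every control, while in the lower panels, the constitutive catalytic genes Psmb5 to Psmb7 and the activators Psme3 and Psme4, the 0.2 mg/kg and control groups overlap.

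The PA28 pair, whose products form a ring that opens the 20S gate and helps immunoproteasome output, rose at 0.2 mg/kg against controls by less than the 3 inducible catalytic genes. Psme1 (PA28 alpha) had 277 (lowest), 299.8 (median) and 394 (highest) CPM at 0.2 mg/kg, against 151 (lowest), 177 (median) and 216 (highest) CPM in controls (log2 fold change 0.81, SE 0.09, adjusted p = 4.14e-06 by limma). It held 250.4, 245 and 309 CPM at 2 mg/kg and 294, 307, 353 and 276 CPM with BLT-1. All treated livers were above all controls and the treated groups overlapped.

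Psme2 (PA28 beta) had 129 (lowest), 134 (median) and 157 (highest) CPM at 0.2 mg/kg, against 80.1 (lowest), 92.7 (median) and 108 (highest) CPM in controls (log2 fold change 0.62, SE 0.07, adjusted p = 3.92e-06 by limma). The livers at 2 mg/kg held 148, 120.5 and 141 CPM and those with BLT-1 142, 148, 162 and 137 CPM. As for Psme1, treated and control livers did not overlap and the treated groups did.

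Psme2b, a retrogene copy of Psme2, was called higher at 0.2 mg/kg, with 13.1 (lowest), 21.4 (median) and 34.9 (highest) CPM against 3.13 (lowest), 11.5 (median) and 18.5 (highest) CPM in controls (log2 1.06, adjusted p = 0.0479 by limma), but the groups overlapped, the call was lost in 16 of 22 fits that left out 1 library, and edgeR did not make it (adjusted p = 0.0764). Its value is uncertain, since 76.5% of the 31-base words of its transcript also occur in Psme2. Of the other activators, Psme3 (PA28 gamma, a nuclear activator) averaged 5.27 ± 0.419 CPM at 0.2 mg/kg and 5.09 ± 0.799 CPM in controls (SD, n = 8 and 7), and Psme4 (PA200) averaged 12.3 ± 1.31 and 11.7 ± 1.43 CPM, neither called (adjusted p = 0.806 and 0.693 by limma).

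At 2 mg/kg the 5 immunoproteasome genes were again all called higher than in controls, by 1.48-fold to 2.43-fold, with every liver at 2 mg/kg above every control. The background in this comparison was 4.03% of genes called higher and 3.84% lower, and 4.20% had all 3 treated livers above all controls. Psmb8 changed by 1.28 (adjusted p = 1.73e-05), Psmb9 by 0.72 (adjusted p = 0.0122) and Psmb10 by 0.63 (adjusted p = 0.00207) on the log2 scale by limma. Psme1 changed by 0.57 (adjusted p = 0.00364) and Psme2 by 0.58 (adjusted p = 3.22e-04). Psmb9 lost its call without liver 3 (adjusted p = 0.0911), and Psmb9 and Psme1 lost theirs without liver 36 (adjusted p = 0.0638 and 0.0529). None of the 5 was called on the deposited scale, where 0.297% of genes were called higher. There 1 of the 5 had an unadjusted p under 0.05 by limma, beside 175 of 10763 genes higher at that limit.

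The higher dose did not go with a larger change. Against 0.2 mg/kg, the livers at 2 mg/kg had lower Psmb9 (log2 fold change -0.76, SE 0.17, adjusted p = 0.00931) and lower Psmb10 (log2 fold change -0.58, SE 0.12, adjusted p = 0.00532), and for each of these genes all 3 livers lay below all 8. The background was 3.03% of genes called lower and 2.95% higher, with 3.62% having all 3 livers below. Psmb8 (log2 -0.27, adjusted p = 0.361, 95% interval -0.58 to 0.04), Psme1 (log2 -0.24, adjusted p = 0.285, interval -0.48 to 0.0038) and Psme2 (log2 -0.05, adjusted p = 0.856, interval -0.23 to 0.14) were not called by limma. The 2 calls held in each fit that left out 1 library, and on the deposited scale, where 0.111% of genes were called lower, 0 of the 5 were called. There 2 of the 5 were lower with an unadjusted p under 0.05 by limma, beside 261 of 10763 genes.

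BLT-1 before 0.2 mg/kg, set against 0.2 mg/kg alone, gave no call among the 5 genes by limma or edgeR, in a comparison with 0.0650% of all genes called lower and 0.0279% higher. The estimates for Psmb9 (log2 fold change -0.64, SE 0.15, adjusted p = 0.120, 95% interval -0.96 to -0.32) and Psmb10 (log2 fold change -0.48, SE 0.11, adjusted p = 0.0960, interval -0.70 to -0.25) were negative with an unadjusted p under 0.05 by limma and by edgeR. By limma 442 of 10763 genes were lower at that limit. For Psmb9 all 4 livers with BLT-1 lay below all 8 without it, as in 0.799% of genes. DESeq2 called Psmb9 and Psmb10 lower (adjusted p = 0.0123 and 0.00432), and limma called Psmb10 without BLT-1 liver 19 (adjusted p = 0.0292). For Psmb8 (log2 -0.21, interval -0.49 to 0.07), Psme1 (log2 -0.04, interval -0.25 to 0.18) and Psme2 (log2 0.07, interval -0.10 to 0.23) the intervals spanned 0.

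Set against controls, the livers with BLT-1 plus 0.2 mg/kg had all 5 immunoproteasome genes called higher by limma, with log2 fold changes of 1.34 for Psmb8, 0.84 for Psmb9, 0.74 for Psmb10, 0.77 for Psme1 and 0.69 for Psme2. The background was 1.86% of genes called higher and 0.938% lower, and every liver with BLT-1 lay above every control in all 5, as in 2.89% of all genes. On the deposited scale 0.00929% of genes were called higher and 0 of the 5. An unadjusted p under 0.05 by limma was found there in all 5, beside 200 of 10763 genes higher at that limit. The 3 comparisons against controls use the same 7 libraries, and the comparisons of 2 mg/kg and of BLT-1 with 0.2 mg/kg use the same 8, so they are not independent of each other.

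**Figure D2:**
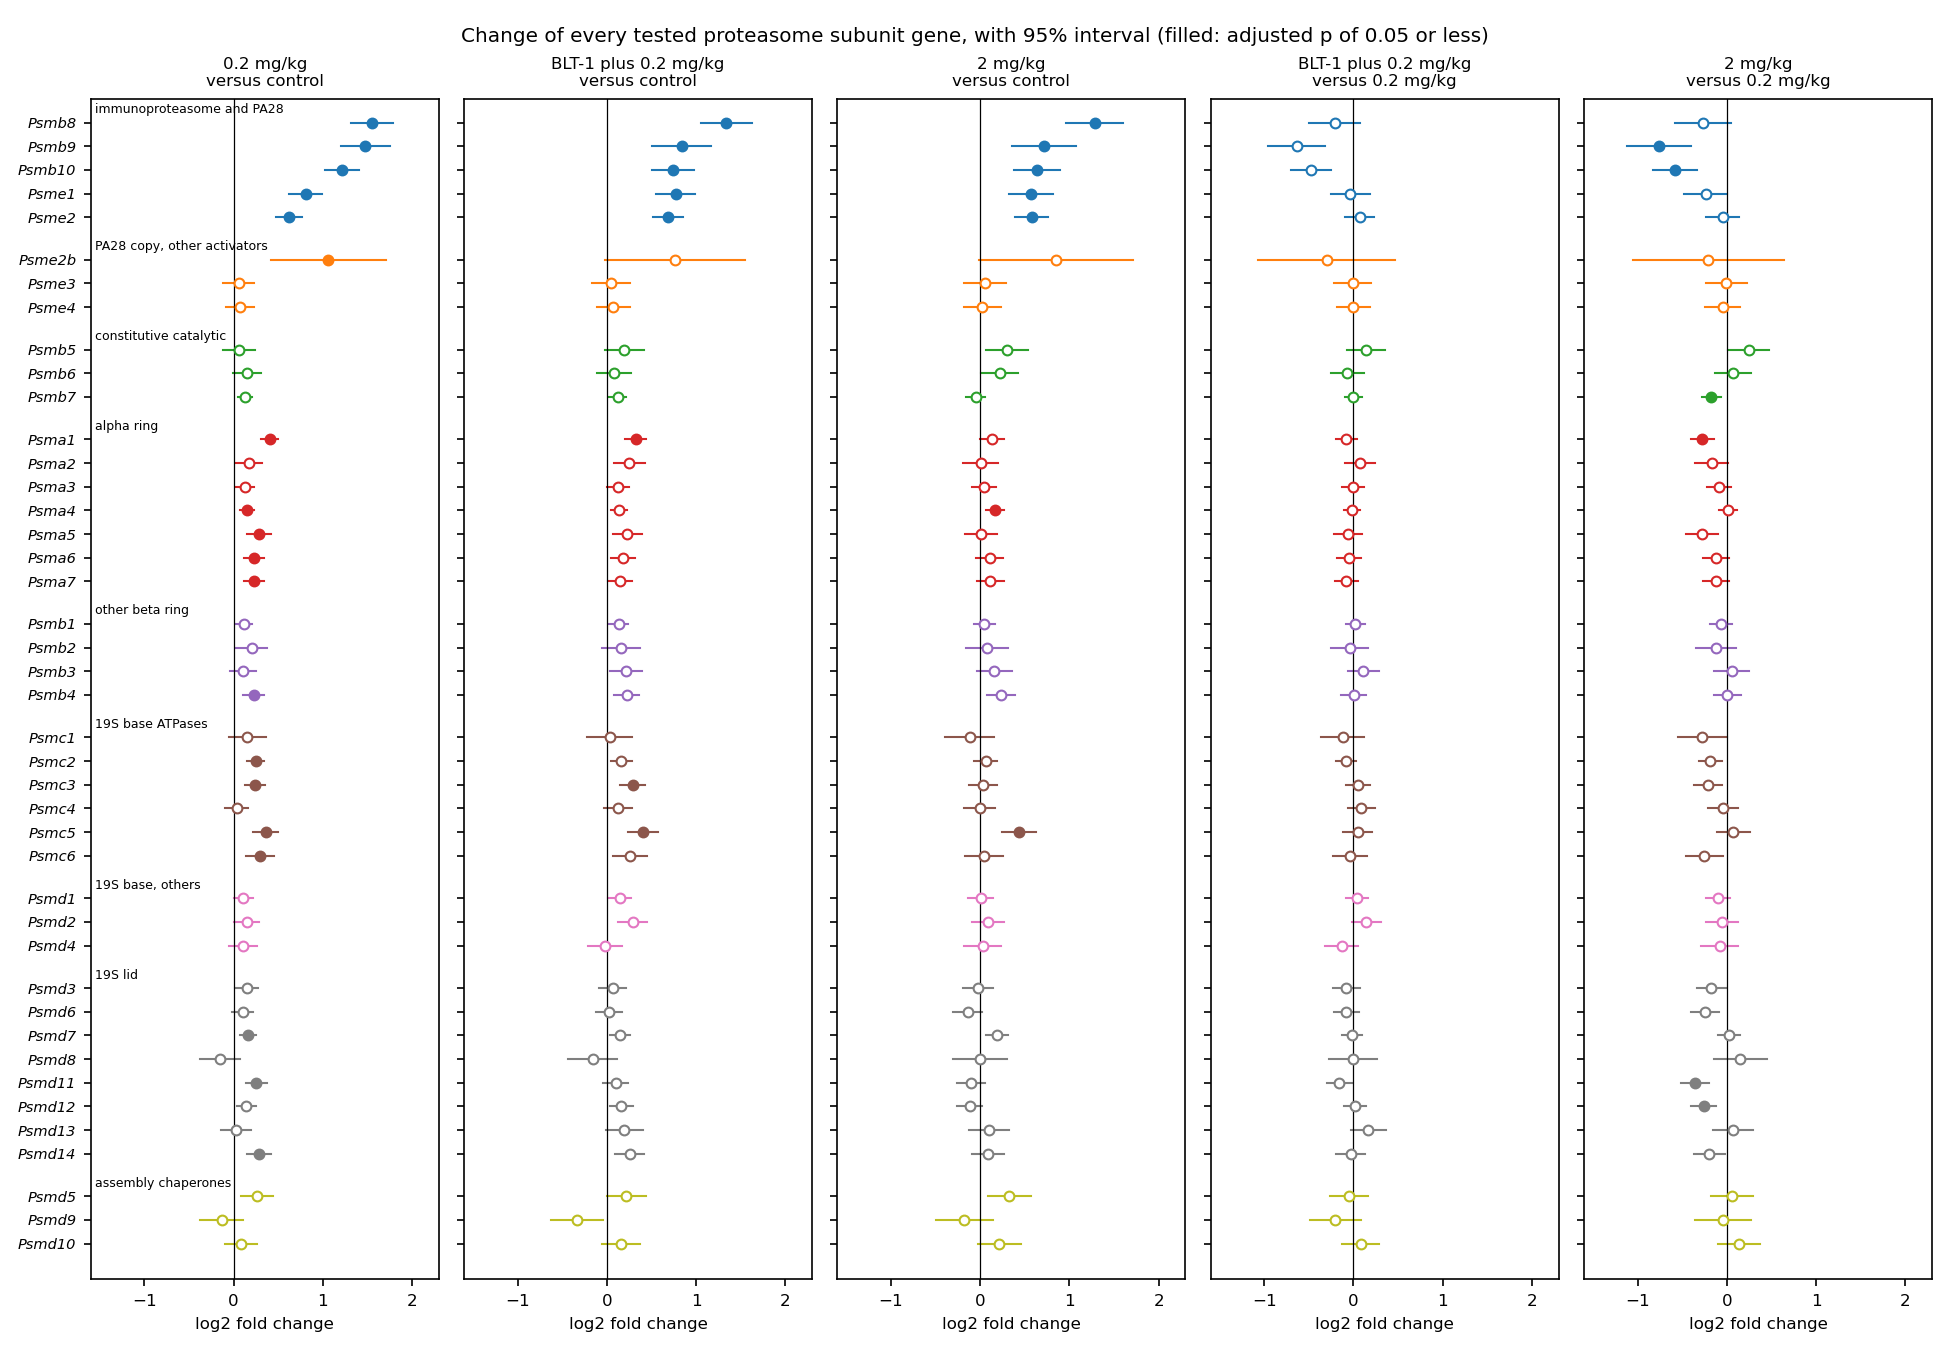
Log2 fold change (horizontal axis, first-named group minus second) of the 42 tested proteasome genes in 5 comparisons, with 95% intervals from limma; rows are genes ordered by place in the complex, and filled points have an adjusted p of 0.05 or less. The 5 immunoproteasome genes at the top lie right of 0 in the 3 comparisons with controls, and Psmb9 and Psmb10 lie left of 0 in the comparison of 2 mg/kg with 0.2 mg/kg.

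Ratios within a library need no scaling between libraries, so each inducible catalytic gene was set against the constitutive gene it replaces. The ratios are of 3′-end reads and do not give the share of either subunit in the complex. For Psmb9 to Psmb6 the read ratio was 0.217, 0.216 and 0.212 at 2 mg/kg and 0.224, 0.270, 0.274 and 0.269 with BLT-1. It was 0.305 (lowest), 0.347 (median) and 0.702 (highest) at 0.2 mg/kg and 0.110 (lowest), 0.146 (median) and 0.187 (highest) in controls. Controls were the lowest, the livers at 2 mg/kg and with BLT-1 lay between, and the 8 livers at 0.2 mg/kg were above all others. How often other pairs of genes separate the groups in this way was not counted, so the ratios have no background. The ratio tests below were adjusted over the ratio tests alone, whereas limma was adjusted over all genes tested, so their calls are not comparable. With BLT-1 against 0.2 mg/kg alone, the ratios were called where limma called none of these inducible genes.

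The mean log2 ratio of Psmb9 to Psmb6 was -1.38 ± 0.41 at 0.2 mg/kg and -2.72 ± 0.28 in controls (SD, n = 8 and 7; difference 1.35, exact two-sided permutation p = 1.55e-04, adjusted p = 7.77e-04; adjusted over the 15 ratio tests), where the exact p is the smallest these group sizes give. At 2 mg/kg it was -2.22 ± 0.02, higher than in controls (difference 0.51, exact two-sided permutation p = 0.0250, adjusted p = 0.0268) and lower than at 0.2 mg/kg (difference -0.84, exact two-sided permutation p = 0.0121, adjusted p = 0.0152). With BLT-1 it was -1.95 ± 0.14, lower than at 0.2 mg/kg alone (difference -0.58, exact two-sided permutation p = 0.0121, adjusted p = 0.0152) and higher than in controls (difference 0.77, exact two-sided permutation p = 0.00303, adjusted p = 0.00909). The difference between BLT-1 and 0.2 mg/kg alone lost its call without BLT-1 liver 6 (adjusted p = 0.0714). The differences between 2 mg/kg and either controls or 0.2 mg/kg lost theirs whenever 1 of the 3 livers at 2 mg/kg (3, 16 or 36) was left out (adjusted p = 0.0595 to 0.0667). Liver numbers were grouped here into ranges of 1-7, 14-20, 27-31 and 36-39, whose meaning the labels do not give. Range 36-39 held no control or BLT-1 liver, and 27-31 held none with BLT-1 or at 2 mg/kg. When labels were permuted only within these ranges, the 3 ratio differences between 0.2 mg/kg and controls kept their call (Psmb9 to Psmb6 difference 1.42, adjusted p = 0.0139). The other 12 did not, in a design whose smallest possible exact p ran up to 0.111. Groups within ranges were too small for any of these 12 to be called, so their lost calls carry no information.

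Psmb10 to Psmb7 had a mean log2 ratio of 0.90 ± 0.11 at 2 mg/kg, 0.84 ± 0.25 with BLT-1, 1.31 ± 0.13 at 0.2 mg/kg and 0.21 ± 0.25 in controls. The read ratio was 1.82, 1.76 and 2.02 at 2 mg/kg and 1.55, 1.63, 2.28 and 1.77 with BLT-1, against 2.20 (lowest), 2.52 (median) and 2.79 (highest) at 0.2 mg/kg and 0.893 (lowest), 1.07 (median) and 1.39 (highest) in controls. It was higher at 0.2 mg/kg than in controls (difference 1.10, exact two-sided permutation p = 1.55e-04, adjusted p = 7.77e-04), lower at 2 mg/kg than at 0.2 mg/kg (difference -0.41, exact two-sided permutation p = 0.00606, adjusted p = 0.0114) and lower with BLT-1 than without (difference -0.47, exact two-sided permutation p = 0.00606, adjusted p = 0.0114). BLT-1 liver 19 overlapped the range at 0.2 mg/kg and the 3 livers at 2 mg/kg did not. The smallest exact permutation p these group sizes give is 0.00606 for 2 mg/kg and 0.00202 for BLT-1, each against 0.2 mg/kg.

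Psmb8 to Psmb5 had a mean log2 ratio of -1.97 ± 0.17 at 2 mg/kg, -1.81 ± 0.25 with BLT-1, -1.45 ± 0.26 at 0.2 mg/kg and -2.97 ± 0.36 in controls. It was higher at 0.2 mg/kg than in controls (difference 1.52, exact two-sided permutation p = 1.55e-04, adjusted p = 7.77e-04) and lower at 2 mg/kg than at 0.2 mg/kg (difference -0.52, exact two-sided permutation p = 0.0182, adjusted p = 0.0210), with overlap between the doses. That difference between the doses lost its call without liver 3 or liver 16 at 2 mg/kg (adjusted p = 0.0667 for each). The difference between BLT-1 and 0.2 mg/kg alone was the smallest of the 15 (difference -0.35, exact two-sided permutation p = 0.0465, adjusted p = 0.0465), and it lost its call in 9 of 12 fits that left out 1 library. Psmb8 itself was not called by limma against 0.2 mg/kg (log2 -0.27 at 2 mg/kg and -0.21 with BLT-1). Mean Psmb5 was 133 CPM at 2 mg/kg, 123 CPM with BLT-1 and 112 CPM at 0.2 mg/kg, so both genes enter these ratio differences. Read ratios were 0.229, 0.251 and 0.290 at 2 mg/kg and 0.246, 0.273, 0.367 and 0.272 with BLT-1, against 0.289 (lowest), 0.357 (median) and 0.483 (highest) at 0.2 mg/kg and 0.0956 (lowest), 0.138 (median) and 0.165 (highest) in controls. Reads of the 5 immunoproteasome genes made up 14.8 ± 0.824% of all proteasome gene reads at 2 mg/kg, 15.5 ± 1.59% with BLT-1, 17.3 ± 2.11% at 0.2 mg/kg and 10.8 ± 1.20% in controls (SD, n = 3, 4, 8 and 7).

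**Figure D3:**
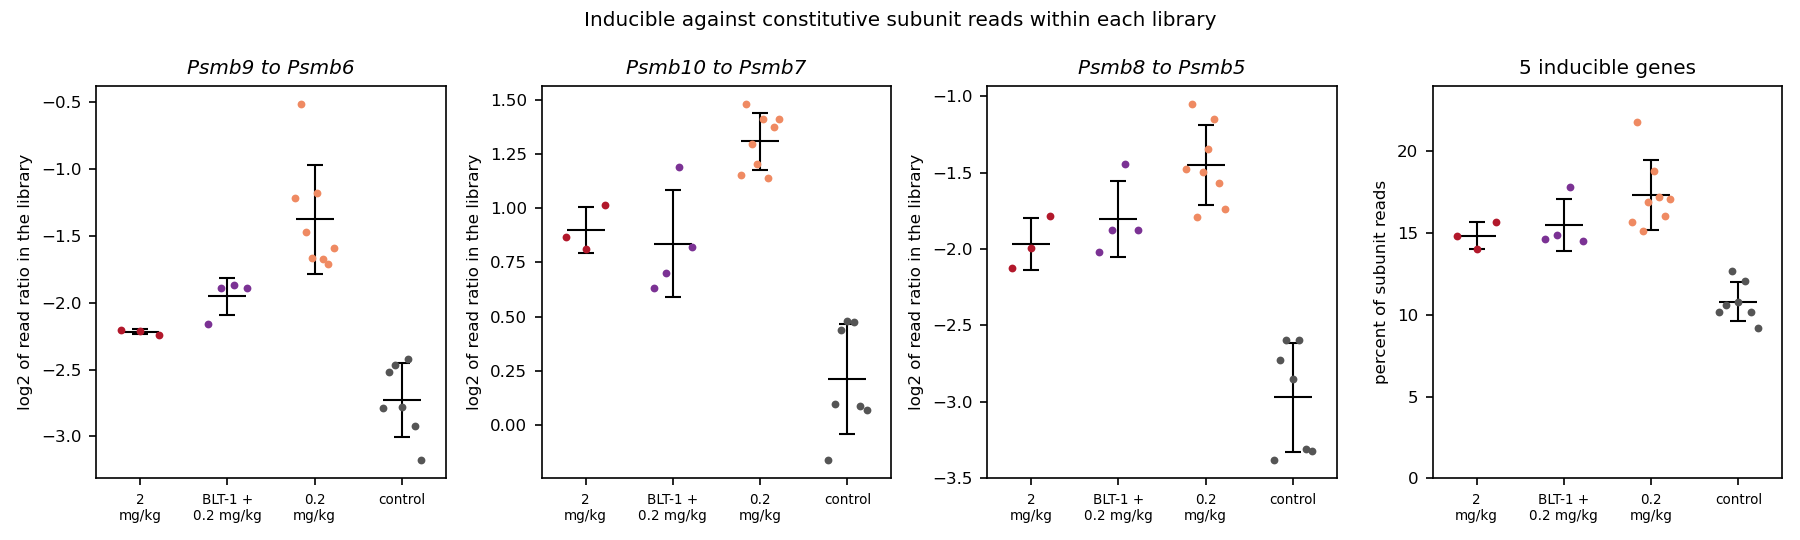
Log2 of the ratio of reads of an inducible gene to reads of the constitutive gene it replaces, and the percent of all proteasome gene reads that came from the 5 immunoproteasome genes (right), per library; points are livers, and bars show the mean and SD (n = 3, 4, 8 and 7 from left to right in each panel). All treated livers lie above all controls in the 3 ratios, and the livers at 2 mg/kg lie below those at 0.2 mg/kg for Psmb9 to Psmb6 and Psmb10 to Psmb7.

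Among the 37 other subunit genes tested, 14 were called higher and 0 lower at 0.2 mg/kg against controls, beside the background of 3.39% called higher. Their median log2 fold change was 0.15, and 35 of 37 were positive, Psmd8, which was highest in controls 28 and 29, and Psmd9 being the exceptions. These small changes depend on how libraries are scaled. TMM factors were 0.997 to 1.14 at 0.2 mg/kg and 0.915 to 0.985 in controls. Over all genes the calls were 365 higher and 255 lower with TMM, 982 higher and 64 lower without it and 24 higher and 0 lower on the deposited scale, and 14, 27 and 0 of the 37 were called higher. Omitting TMM moved the median of all genes by 0.11, and the deposited scale moved it by -0.11. The median of the 37 relative to that of all genes was 0.15 with TMM, 0.16 without it and 0.14 on the deposited scale.

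The constitutive catalytic genes were not among the calls at 0.2 mg/kg. Psmb5 (chymotrypsin-like site) averaged 112 ± 11.9 CPM at 0.2 mg/kg and 108 ± 18.003 CPM in controls (SD, n = 8 and 7; log2 0.06, adjusted p = 0.804, 95% interval -0.12 to 0.24, by limma). Psmb6 (caspase-like site) averaged 125 ± 12.5 and 113 ± 11.6 CPM (log2 0.15, adjusted p = 0.311, interval -0.01 to 0.30), and Psmb7 (trypsin-like site) 69.5 ± 2.08 and 63.8 ± 3.43 CPM (log2 0.12, adjusted p = 0.0652, interval 0.04 to 0.20). The highest control values of Psmb5, 142 and 125 CPM, came from controls 28 and 29, with the other 5 controls at 94.4 to 104 CPM.

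In the alpha ring, which forms the gate of the core, 5 of 7 genes rose at 0.2 mg/kg. Psma1 had 77.9 (lowest), 83.01 (median) and 89.1 (highest) CPM at 0.2 mg/kg, against 57.1 (lowest), 62.6 (median) and 67.1 (highest) CPM in controls (log2 fold change 0.40, SE 0.05, adjusted p = 1.06e-05 by limma), with no overlap. Psma4 (0.15), Psma5 (0.29), Psma6 (0.23) and Psma7 (0.23) were called with log2 changes under 0.3 and overlapping groups. Psma2 and Psma3 were not called (0.18 and 0.13; adjusted p = 0.168 and 0.143). Among the 4 beta subunits without a proteolytic site, Psmb4 was called (log2 0.22, adjusted p = 0.0181) and Psmb1, Psmb2 and Psmb3 were not (log2 0.11, 0.20 and 0.10).

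In the 19S base, whose ATPases thread substrates into the core, 4 of 6 ATPase genes were called higher at 0.2 mg/kg. Psmc5 had 36.8 (lowest), 38.9 (median) and 42.9 (highest) CPM at 0.2 mg/kg, against 25.8 (lowest), 32.5 (median) and 34.6 (highest) CPM in controls (log2 fold change 0.36, SE 0.07, adjusted p = 0.00185 by limma). Psmc2 averaged 50.7 ± 2.41 CPM at 0.2 mg/kg and 42.6 ± 2.43 CPM in controls (log2 0.25, adjusted p = 0.00211). Psmc2 and Psmc5 were, with Psma1, the 3 of the 37 genes whose groups did not overlap, beside 1.56% of all genes with every treated liver above every control. Psmc3 (0.24) and Psmc6 (0.30) were called with overlap, and Psmc1 and Psmc4 were not called (0.15 and 0.03). Psmc6 lost its call without control 2 or 15 (adjusted p = 0.0516 and 0.0553). The base subunits Psmd1, Psmd2 and Psmd4, which hold ubiquitin receptors and docking sites, had log2 changes of 0.11, 0.14 and 0.11 and 0 of 3 were called.

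In the 19S lid, 3 of 8 genes were called higher at 0.2 mg/kg. They were Psmd14 (the deubiquitinase that removes ubiquitin chains; log2 0.29, adjusted p = 0.00965), Psmd11 (a scaffold of the lid; log2 0.25, adjusted p = 0.00915) and Psmd7 (the partner of Psmd14; log2 0.16, adjusted p = 0.0346), whose call was lost in 9 of 22 fits that left out 1 library. The other lid genes, Psmd3, Psmd6, Psmd8, Psmd12 and Psmd13, ranged from -0.15 (Psmd8) to 0.15 on the log2 scale. Psmd8 had 83.7 and 84.8 CPM in controls 28 and 29, against 49.7 to 55.9 CPM in the other controls and 49.6 to 59.6 CPM at 0.2 mg/kg. The chaperones of 19S assembly, Psmd5, Psmd9 and Psmd10, had log2 changes of 0.26, -0.13 and 0.08, and 0 of 3 were called. Counted over the whole complex, the 14 calls thus came from the alpha ring (5), the other beta subunits (1), the ATPases (4), the lid (3) and Psme2b (1).

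Against controls, 2 mg/kg gave 2 calls higher and 0 lower among the 37 genes, with a median log2 fold change of 0.05, beside the background of 4.03% higher. Psmc5 had 47.2, 36.2 and 41.1 CPM at 2 mg/kg (log2 fold change 0.43, SE 0.09, adjusted p = 0.00370 by limma), and its call was lost without liver 3 (adjusted p = 0.0641). Psma4 had 153, 146 and 155 CPM at 2 mg/kg, against 125 (lowest), 135 (median) and 145 (highest) CPM in controls (log2 0.16, adjusted p = 0.0486), and it lost its call in 17 of 22 fits that left out 1 library and by edgeR (adjusted p = 0.0629). The calls over all genes split into 434 higher and 413 lower with TMM and 953 higher and 170 lower without it, and 11 of the 37 were called without it. Psmb5 averaged 133 ± 12.6 CPM at 2 mg/kg (log2 0.30 against controls, adjusted p = 0.124) and was not called.

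Set against 0.2 mg/kg, 2 mg/kg gave 4 calls lower and 0 higher among the 37 genes, beside a background of 3.03% lower, and a median log2 fold change of -0.09. Psmd11 had 54.3, 50.7 and 59.7 CPM at 2 mg/kg, against 65.3 (lowest), 68.3 (median) and 80.4 (highest) CPM at 0.2 mg/kg (log2 fold change -0.35, SE 0.07, adjusted p = 0.00601 by limma). Psma1 had 67.3, 64.5 and 75.1 CPM at 2 mg/kg (log2 -0.27, adjusted p = 0.00999). Both genes were thus lower at the higher dose, without overlap, as were 7 of the 37, beside 3.62% of all genes. Psma1 was not called without 2 mg/kg liver 3 or 16 (adjusted p = 0.0784 and 0.0575). The remaining calls were Psmd12, a lid subunit (log2 -0.26), and Psmb7 (log2 -0.17, adjusted p = 0.0464), which lost its call in 16 of 22 fits that left out 1 library, and Psmd12 was not called without liver 3 or 36 (adjusted p = 0.102 and 0.0838). Over all genes the split was 317 higher and 326 lower with TMM and 20 higher and 12 lower on the deposited scale, where 0 of the 37 were called.

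With BLT-1 plus 0.2 mg/kg, 0 of the 37 genes were called against 0.2 mg/kg alone by limma, edgeR or DESeq2. Of the 37, 1, Psmd11, was lower with an unadjusted p under 0.05 by limma and by edgeR, beside 442 of 10763 genes lower at that limit by limma. The median was -0.02. Over all genes the split was 3 higher and 7 lower with TMM, 1 higher and 8 lower without it and 0 higher and 0 lower on the deposited scale, which moved the median of all genes by 0.16. Against controls, 3 of the 37 rose with BLT-1 plus 0.2 mg/kg, beside the background of 1.86% higher, with a median of 0.16. They were Psma1 with 75.3, 76.1, 76.1 and 87.7 CPM (log2 0.32, adjusted p = 0.00284), Psmc5 with 40.3, 39.1, 41.5 and 41.01 CPM (log2 0.41, adjusted p = 0.00711) and Psmc3 with 329.7, 307, 300.4 and 307 CPM (log2 0.29, adjusted p = 0.0213 by limma). Psmc3 lost its call without BLT-1 liver 6 or 7 (adjusted p = 0.0975 and 0.0613). Without controls 28 and 29 the count was 10 of 37, with liver number ranges as a block 5, and in a fit of these groups alone 1. The split over all genes was 200 higher and 101 lower with TMM, 274 higher and 51 lower without it and 1 higher and 0 lower on the deposited scale.

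Replicate livers varied more in the immunoproteasome genes than in the rest. The median coefficient of variation over the 5 genes was 10.5% at 2 mg/kg, 13.3% with BLT-1, 13.6% at 0.2 mg/kg and 15.3% in controls. Over the 37 other genes it was 7.52%, 6.86%, 7.09% and 9.09% in the same groups. These are descriptions without a test, and the CPM levels of the genes differ. Liver 5 at 0.2 mg/kg had the highest immunoproteasome share of proteasome reads, 21.8%, and the 5 genes remained called at 0.2 mg/kg when it was left out.

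**Figure D4:**
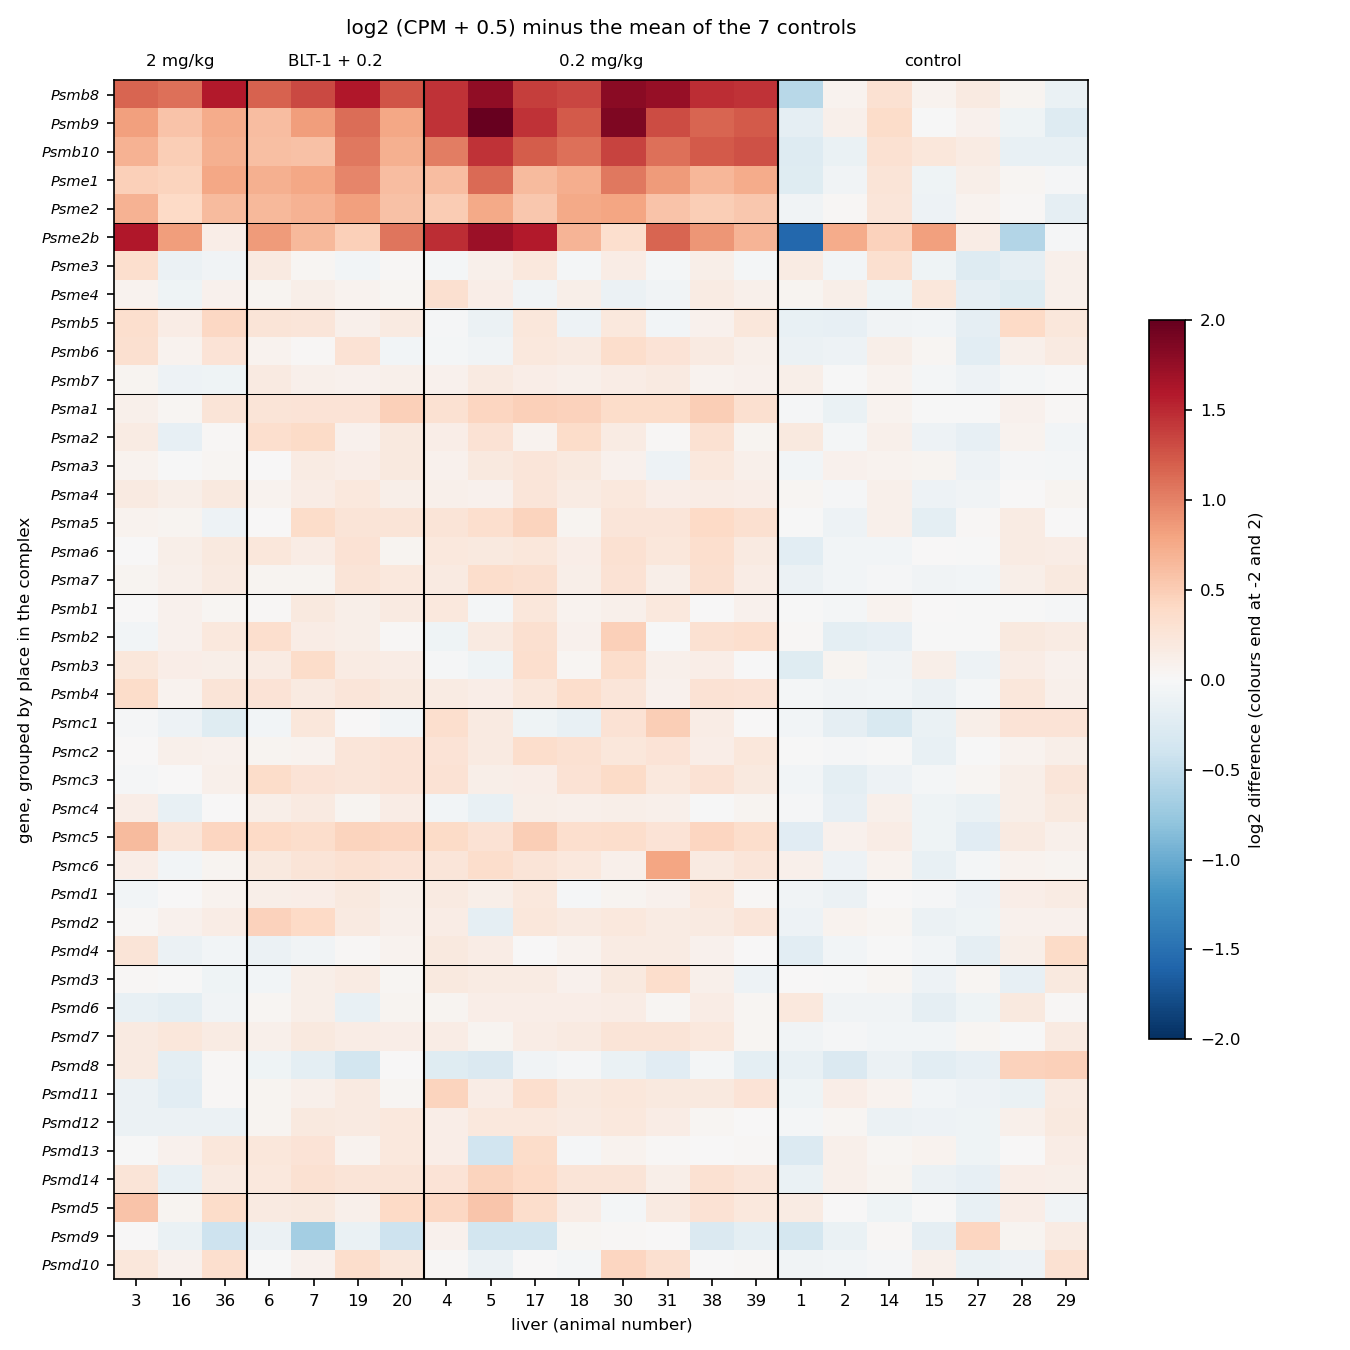
Difference of log2(CPM + 0.5) from the mean of the 7 controls (colour, ending at -2 and 2) for 42 proteasome genes (rows, grouped by place in the complex) in each of 22 livers (columns, liver numbers from the labels, called animal numbers on the axis, with groups from left 2 mg/kg, BLT-1 plus 0.2 mg/kg, 0.2 mg/kg and control). The top 5 rows are red in all 15 treated livers, whereas most other rows stay near 0 and Psme2b varies from liver to liver.

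Genes that act around the proteasome were read from lists of partners. Of 6 tested assembly factors, 3 rose at 0.2 mg/kg against controls, beside a background of 3.39% of all genes: Pomp, which brings beta subunits including the inducible ones into the nascent core (log2 0.23), and the pairing chaperones Psmg1 (0.27) and Psmg4 (0.36). Psmg1 was not called by edgeR (adjusted p = 0.0606). Pomp averaged 100.1 ± 4.58 CPM at 0.2 mg/kg and 85.5 ± 7.59 CPM in controls, and all 8 treated livers lay above all 7 controls, as in 1.56% of all genes. At 2 mg/kg, 1 of the 6 was called against controls, Psmg4 (0.53), beside 4.03% of all genes higher. With BLT-1 plus 0.2 mg/kg 1 of 6 was called, Pomp (0.26), beside 1.86% of all genes higher. Of 19 proteasome-associated genes, Rad23b, a shuttle for ubiquitinated proteins (0.19), and Usp14, a deubiquitinase of the 19S cap (0.24), rose at 0.2 mg/kg against controls. Usp14 was not called by edgeR (adjusted p = 0.112), and Rad23b was lower at 2 mg/kg than at 0.2 mg/kg (-0.19, beside 3.03% of all genes).

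Of 7 genes that control proteasome gene transcription, Nfe2l1 and Nfe2l2 (NRF1 and NRF2) were not called at 0.2 mg/kg against controls (log2 -0.10 and 0.11; adjusted p = 0.642 and 0.502 by limma). Bach1, a repressor at antioxidant response elements, rose (log2 0.64), as did its partner Mafg (0.21), and both fell at 2 mg/kg against 0.2 mg/kg (-0.80 and -0.28). These were the 2 of 7 called by limma in each comparison, beside backgrounds of 3.39% higher and 3.03% lower, and edgeR called Bach1 in both but not Mafg (adjusted p = 0.136 and 0.0804). Of 5 ubiquitin genes, Rps27a, which encodes ubiquitin fused to a ribosomal protein, was the 1 called, lower at 0.2 mg/kg than in controls (-0.21, beside 2.37% of all genes) and higher at 2 mg/kg than at 0.2 mg/kg (0.36, beside 2.95% of all genes).

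MHC class I partners use the peptides that proteasomes make. Of 10 tested, 5 rose and 0 fell at 0.2 mg/kg against controls, beside 3.39% of all genes higher: the peptide transporter genes Tap1 (log2 0.88) and Tap2 (0.63), tapasin, Tapbp (0.67), the trimming enzyme Erap1 (0.65) and the light chain B2m (0.35). At 2 mg/kg 5 rose against controls, beside 4.03% of all genes, with Tap1 at 0.92, Tap2 at 0.72, Tapbp at 0.78, Erap1 at 0.37 and the chaperone Calr at 0.43. Of these, edgeR did not call Erap1 (adjusted p = 0.0502). Tap1 averaged 6.87 ± 2.32 CPM at 2 mg/kg and 3.27 ± 0.521 CPM in controls (SD, n = 3 and 7). Its difference between 2 mg/kg and 0.2 mg/kg was not called (log2 0.04, 95% interval -0.32 to 0.41). B2m and Erap1 were lower at 2 mg/kg than at 0.2 mg/kg (-0.33 and -0.28, the second not called by edgeR, adjusted p = 0.145), beside 3.03% of all genes. Calr and the peptide-loading protein Pdia3 were higher there (0.58 and 0.47), beside 2.95% of all genes. With BLT-1, B2m (0.35), Erap1 (0.57) and Tapbp (0.42) rose against controls, beside 1.86% of all genes. Tapbp was not called there by edgeR (adjusted p = 0.0538), and 0 of 10 were called against 0.2 mg/kg alone by limma or edgeR.

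Among the interferon signal genes described here, Irf7, a transcription factor that drives interferon genes, averaged 27.6 ± 4.16 CPM at 0.2 mg/kg and 8.10 ± 2.28 CPM in controls (log2 fold change 1.76, SE 0.18, adjusted p = 1.30e-06 by limma). Irf9, a subunit of the factor complex downstream of the type I interferon receptor, rose by 0.44 on the log2 scale in the same comparison. At 2 mg/kg both rose against controls (Irf7 1.93 and Irf9 0.66). With BLT-1 plus 0.2 mg/kg, Irf7 rose against controls (1.51). Between 2 mg/kg and 0.2 mg/kg, neither was called by limma (log2 0.17, adjusted p = 0.779 for Irf7 and log2 0.22, adjusted p = 0.445 for Irf9).

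Leukocytes hold immunoproteasomes at rest, so markers of other cells were read beside these results. Leukocyte, T, NK and B cell markers (8 of 14 in the table) summed to 4.96 to 11.1 CPM at 2 mg/kg, 2.99 to 5.24 CPM with BLT-1, 3.07 to 6.89 CPM at 0.2 mg/kg and 2.48 to 5.31 CPM in controls. Monocyte and neutrophil markers (8 of 10) summed to 111 to 171 CPM at 2 mg/kg, 71.4 to 125 CPM with BLT-1, 80.9 to 102 CPM at 0.2 mg/kg and 76.1 to 116 CPM in controls, with Ly6c2 (1.81) and Plac8 (0.74) called higher at 0.2 mg/kg against controls, beside 3.39% of all genes. The calls among these lists at 2 mg/kg against controls were Plac8 (1.00), S100a9 (1.84) and, by limma and not by edgeR, Gzma (1.34), all higher, beside 4.03% of all genes. Kupffer cell markers (11 of 11) summed to 63.4 to 79.3 CPM, 70.2 to 100.1 CPM, 66.4 to 98.4 CPM and 83.2 to 111 CPM in the same order of groups. Against controls, Kupffer markers called lower were Vsig4 (-0.71), Marco (-0.96) and C1qc (-0.57) at 2 mg/kg, Vsig4 (-0.87) with BLT-1, and Vsig4 (-0.69) and Csf1r (-0.45) at 0.2 mg/kg.

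Dendritic cell markers (4 of 6 in the table) summed to 1.06 to 1.81 CPM at 0.2 mg/kg and 0.794 to 2.45 CPM in controls. Among markers of the sinusoidal endothelium, Pecam1 was higher at 0.2 mg/kg than in controls (29.5 ± 11.1 CPM and 11.5 ± 5.50 CPM), while the sum of 6 markers was 271 to 429.5 CPM at 0.2 mg/kg and 261 to 423 CPM in controls. Pecam1 was lower at 2 mg/kg and with BLT-1 than at 0.2 mg/kg alone (log2 -1.92 and -2.11), where 3.03% and 0.0650% of all genes were called lower. Lyve1 was higher at 2 mg/kg than in controls (0.74), where 4.03% of all genes were called higher. No listed marker found in the table was at 0 in every library of a group. The part of any of these cells in the proteasome results was not tested.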

How the data were processed

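RNA from 22 livers was sequenced from 3′ ends with ERCC spike-ins, per the labels' protocols. The deposited signal per gene is a whole number divided by 1 size factor per library, made by the authors. Per the submitters' processing notes, the tools were bcl2fastq, Trim Galore 0.6.7, STAR 2.7.9a, Salmon 1.5.2, R 4.1.1 and DESeq2 1.32.0, with genome GRCm39; their roles are not given in the sources used here, nor whether the whole numbers are read counts or rounded estimates. Whole numbers were recovered for 100% of values within 0.001 and treated as reads, 7152596 to 15101565 per library with spike-ins and 6892714 to 14016665 without them. The depth limits genes at a few CPM, such as Psme3. The 84 spike-in rows were left out of library sizes and tests, and 0 sample columns were left unmapped.

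Reads were scaled to CPM with TMM factors (edgeR 4.0.16) and tested on log2(CPM + 0.5) with limma 3.58.1 and a trend, on 10763 genes with at least 1 CPM in at least 3 libraries, all 22 libraries in 1 fit. Adjustment was Benjamini-Hochberg over all genes of a comparison, with calls at 0.05. Ratios are log2 of (reads + 1) over (reads + 1), tested by exact two-sided permutation and adjusted over 15 tests. The design allowed for this unit, so no planned test was replaced. Alternatives were edgeR's quasi-likelihood test, DESeq2 1.42.0, limma on log2 of the deposited signal plus 1, whose printed changes are relative to the median gene, other scalings, pseudocounts, filters and limits, and fits without libraries. The fits without controls 28 and 29 rest on an earlier analysis, and CPM without TMM and the fit that also omits liver 5 were chosen after seeing the data. The steps were tested on simulated data. The members, lists, naming rule and comparisons were chosen with earlier results of these data known: any proteasome gene may be named, and others only from fixed lists of partners and cell markers. Part of the interferon signal list is not reported here. Emc9, Gm20496, Nek6, Sirt3, Slc39a13 and AY074887 are named for overlap with exons in a GENCODE annotation of GRCm38.p6, a build other than that of the files; promoter sequences are from RefSeq on the same build. Pairs of replicates (58) differed by chi-square statistics of 10.4 to 65.6 times the degrees of freedom, more than counting noise, and none was treated as a duplicate.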

Additional observations from a re-analysis of the deposited data

Results flagged for a closer look

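In groups of 4 to 8 livers, a value was singled out where its gap to the nearest other liver was a larger share of the group's range than Dixon's 95% limit allows. Over the proteasome genes and ratios, 8 of 135 groups of values did so, and chance flags about 1 in 20 groups. Psma1 in BLT-1 liver 20 was the highest of its group at 87.7 CPM, with the other 3 livers at 75.3 to 76.1 CPM. Psmb1 in control 14 was the highest of its group at 69.8 CPM, with the other 6 livers at 64.5 to 66.4 CPM. Psmb3 in BLT-1 liver 7 was the highest of its group at 223 CPM, with the other 3 livers at 191 to 195 CPM. Psmc6 in 0.2 mg/kg liver 31 was the highest of its group at 44.1 CPM, with the other 7 livers at 27.2 to 32.4 CPM. Psmd2 in 0.2 mg/kg liver 5 was the lowest of its group at 89.7 CPM, with the other 7 livers at 113 to 119.8 CPM. Psmd7 in control 29 was the highest of its group at 56.4 CPM, with the other 6 livers at 47.2 to 50.8 CPM. The log2 ratio Psmb9 to Psmb6 in BLT-1 liver 6 was the lowest of its group at -2.16, with the other 3 livers at -1.89 to -1.87. The log2 ratio Psmb9 to Psmb6 in 0.2 mg/kg liver 5 was the highest of its group at -0.51, with the other 7 livers at -1.71 to -1.18. No cause was tested for any of them.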

How the results depend on the processing

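No paired analysis was possible because the groups share no replicate numbers. Counts are given below in the order 0.2 mg/kg, 2 mg/kg and BLT-1 plus 0.2 mg/kg against controls, then 2 mg/kg and BLT-1 plus 0.2 mg/kg against 0.2 mg/kg, and the cause of each change was not tested. On the deposited spike-in scale, which spreads libraries of a group, limma called 24, 53, 1, 32 and 0 of all genes, 2, 0, 0, 0 and 0 of the 5 immunoproteasome genes and 0 of the 37 others in each comparison. Under every other alternative run, those that left out 1 library included, all 5 were called at 0.2 mg/kg against controls. At a limit of 0.01 the counts over all genes were 277, 423, 122, 299 and 3, and over the 37 others 6, 1, 2, 2 and 0. Without TMM the count over all genes at 0.2 mg/kg against controls was 1046, and over the 37 others 27, 11, 4, 1 and 0. DESeq2 called 465 genes with BLT-1 against controls (6 of the 37) and 95 against 0.2 mg/kg (2 of the 5), and 8 of the 37 at 2 mg/kg against 0.2 mg/kg.

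For the 37 others at 2 mg/kg against controls the count was 1 with RLE size factors, 1 by edgeR, 1 with no filter and 0 in a fit of these groups alone, which called 327 of all genes. With BLT-1 against controls such a fit called 171 of all genes and 1 of the 37, and liver number ranges as a block gave 5 of the 37. Leaving out controls 28 and 29 gave 5, 10 and 7 of the 37 at 2 mg/kg and with BLT-1 against controls and at 2 mg/kg against 0.2 mg/kg, and with liver 5 also left out 5, 12 and 4. In fits without 1 library the counts over all genes were 490 to 666, 378 to 1059, 172 to 342, 235 to 830 and 2 to 20, over the 37 others 12 to 15, 0 to 4, 2 to 4, 2 to 5 and 0 to 0, and over the 5 5 to 5, 3 to 5, 5 to 5, 2 to 2 and 0 to 1. For 2 mg/kg against controls and 0.2 mg/kg the lowest counts over all genes came without 2 mg/kg liver 3.

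With labels permuted only within ranges of liver numbers, groups were too small for 12 of the ratio differences to be called. These 12 kept their direction but not their call: Psmb9 to Psmb6 0.43, 0.69, -0.86 and -0.74, Psmb10 to Psmb7 0.63, 0.62, -0.42 and -0.45, and Psmb8 to Psmb5 0.83, 1.09, -0.45 and -0.35 (2 mg/kg and BLT-1 against controls, then against 0.2 mg/kg). In fits without 1 library the ratio differences, in the order of comparisons first given, were Psmb9 to Psmb6 1.22 to 1.40, 0.43 to 0.56, 0.70 to 0.84, -0.89 to -0.72, -0.62 to -0.45, Psmb10 to Psmb7 1.03 to 1.14, 0.62 to 0.73, 0.51 to 0.69, -0.47 to -0.37, -0.59 to -0.40 and Psmb8 to Psmb5 1.45 to 1.58, 0.91 to 1.083, 1.05 to 1.24, -0.61 to -0.44, -0.47 to -0.28. Estimates near 0 changed sign: Psme1 with BLT-1 against 0.2 mg/kg, at -0.105 to 0.0135 without 1 library, was 0.00940 with the block, 0.0103 without controls 28 and 29 and liver 5, 0.0135 without BLT-1 liver 20 and 0.0103 without liver 5, Psme2 in the same comparison was -0.00178 without TMM, and Psme2 at 2 mg/kg against 0.2 mg/kg, at -0.106 to 0.0420 without 1 library, was 0.0420 without liver 16.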
